A study of Mus musculus with 9 samples.

Results

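The interferon-inducible GTPases are large guanosine triphosphatases that cells make when interferon is sensed. In mouse intestinal organoids, 10 of them were chosen by symbol and followed: the guanylate-binding proteins Gbp2, Gbp3, Gbp6, Gbp7 and Gbp9, the immunity-related GTPases Irgm1, Irgm2, Igtp and Iigp1, and the Mx family member Mx2. All 10 of 10 were matched to an Ensembl identifier among the 54838 genes in the deposited tables. The organoids carried Vil-CreERT2, a Cre recombinase made in intestinal epithelium and activated by 4-hydroxytamoxifen (4-OHT), and Mettl3 fl/fl, both alleles of the m6A methyltransferase gene Mettl3 flanked by loxP sites. They were labelled C57BL/6, and every group shared these alleles, so no group received 4-OHT without Cre. EtOH, the vehicle, or 500 nM 4-OHT was given for 2 days. DMSO, the vehicle, or necrostatin-1 (Nec-1), an inhibitor of the kinase RIPK1, was given for 5 days. The concentration of Nec-1 is stated as 5 µM in a legend and as 10 µM in the methods of the study. Bulk RNA-seq gave 7 libraries: 2 of EtOH DMSO, 2 of EtOH Nec-1, 2 of 4-OHT DMSO and 1 of 4-OHT Nec-1. Nothing in the labels says that libraries of a group came from separate mice or cultures, so p-values measure the spread between these libraries, which may be technical.

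In general, interferons act through receptors and JAK kinases on STAT and IRF transcription factors, which bind short sequences before their target genes. Type I and type III interferons act mainly through the interferon-stimulated response element (ISRE), and interferon-γ mainly through the γ-activated site (GAS). The guanylate-binding proteins attack the membranes of intracellular microbes and of the vacuoles that hold them, and they promote inflammasome signalling. Immunity-related GTPases fall into regulators that sit on the cell's own membranes, which are Irgm1, Irgm2 and Igtp (also called Irgm3), and effectors that load onto pathogen vacuoles, such as Iigp1 (Irga6). Mx proteins are dynamin-like antiviral GTPases.

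Before the values, the sequences upstream of the members are shown, because they hold the letters of these elements. RefSeq gives a promoter window, from 250 bases before to 50 bases after the start site, for 6 of 10 members on GRCm38.p6, the assembly that mm10 represents. The stretch before each gene is printed 5′ to 3′ on the strand of the gene, with matches to the ISRE letters GAAANNGAAA on either strand or to the palindromic GAS letters TTCNNNGAA in capitals. The Gbp3 stretch is shorter, since its window reaches into the annotated gene.
Irgm1: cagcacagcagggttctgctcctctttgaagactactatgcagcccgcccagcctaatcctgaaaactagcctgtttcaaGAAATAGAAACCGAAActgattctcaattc
Igtp: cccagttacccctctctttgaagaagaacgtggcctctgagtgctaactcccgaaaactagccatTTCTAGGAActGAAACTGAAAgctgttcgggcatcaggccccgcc
Irgm2: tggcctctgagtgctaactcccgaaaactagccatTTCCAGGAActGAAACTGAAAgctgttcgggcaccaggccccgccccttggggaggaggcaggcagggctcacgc
Gbp3: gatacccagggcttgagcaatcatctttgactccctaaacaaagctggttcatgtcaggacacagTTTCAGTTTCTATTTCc
Gbp7: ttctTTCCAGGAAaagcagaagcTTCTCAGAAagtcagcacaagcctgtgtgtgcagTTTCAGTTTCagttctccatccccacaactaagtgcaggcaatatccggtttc
Gbp2: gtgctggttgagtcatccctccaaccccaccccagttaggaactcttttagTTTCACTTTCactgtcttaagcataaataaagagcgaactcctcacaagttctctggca

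These stretches lie at chr11:48871421-48871530 for Irgm1 (minus strand), chr11:58199446-58199555 for Igtp, chr11:58214867-58214976 for Irgm2, chr3:142559934-142560015 for Gbp3, chr3:142530226-142530335 for Gbp7 and chr3:142620553-142620662 for Gbp2 (all plus strand). All 6 members with a window held the ISRE letters, against 3.44% of 32851 RefSeq windows. In Irgm1 and in Gbp3, 2 matches overlapped each other. The second annotated start of Gbp3 had no match in its window. The GAS letters stood in 3 of the 6, Igtp, Irgm2 and Gbp7, against 8.3% of all windows. In Igtp and Irgm2, neighbouring genes of the regulator class, the GAS letters stood just before the ISRE letters. Their windows shared an identical run of 61 bases, the longest between any pair of members, and no other pair shared more than 13. A match is a description of letters in a window and not evidence of a bound factor. Matches were not particular to the members: 7 of 10 other interferon-inducible GTPases with a window also held the ISRE letters, and 5 of 10 the GAS letters. Nor was the layout of Igtp and Irgm2 particular to them. In the other GTPases Tgtp1, Tgtp2 and Gm12185 the GAS letters also stood just before the ISRE letters.

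**Figure D1:**
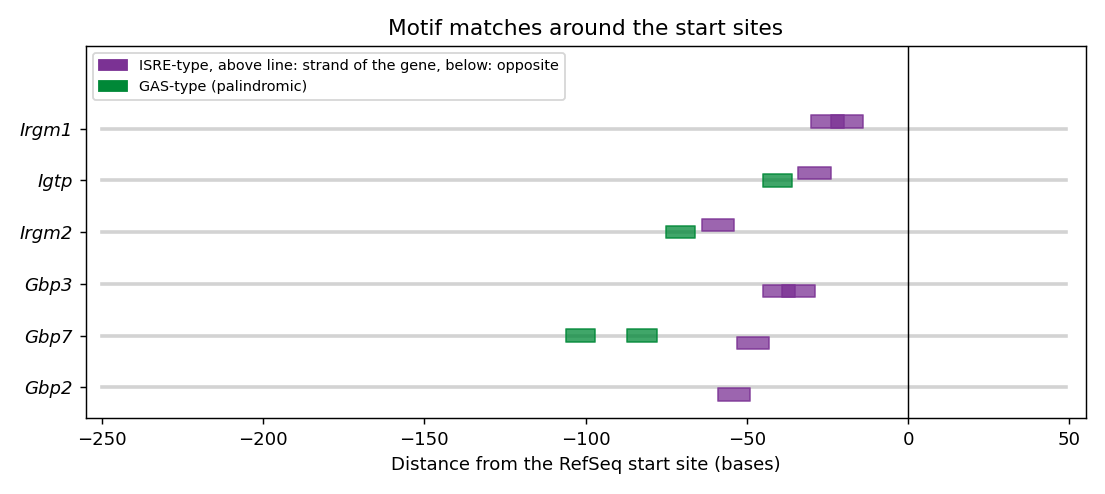
Matches to the ISRE letters (purple) and GAS letters (green) in the first promoter window of 6 members, plotted by distance in bases from the RefSeq start site, at 0. Every match lay upstream of the start site, with the ISRE match nearest to it in Irgm1, from -24 to -15.

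Values are FPKM, fragments scaled to transcript length and to the mapped fragments of the library, in which genes are comparable per length. The fragments behind each value are not known, so depth is unknown, and an FPKM well below 1 rests on few fragments. FPKM summed to 450207 to 498712 per library, and the spacing of low values gave relative depths of 0.851 to 1.03. Mettl3 itself did not fall under the 4-OHT labels: it had 3.72 and 4.14 FPKM with 4-OHT DMSO and 3.36 with 4-OHT Nec-1, above its 2.70 and 2.71 with EtOH DMSO and 2.41 and 2.47 with EtOH Nec-1. Its log2 difference, 4-OHT DMSO minus EtOH DMSO, was 0.41 (SE 0.10; limma, adjusted p = 0.0231), so each direction given below rests on the labels alone. Gene-level FPKM includes the exons outside the floxed part. The 8 epithelial markers, among them Epcam, Cdh1, Vil1 and Krt8, summed to 2696 to 3758 FPKM per library. Of the markers of other cell types, Ptprc, the pan-leukocyte gene of CD45, had at most 0.0497 FPKM, and Itgax was at 0 throughout. Itgam, a myeloid integrin gene, had 1.19 to 2.45 FPKM in the EtOH libraries, 0.315 and 0.917 under 4-OHT DMSO and 1.31 under 4-OHT Nec-1. The 12 immune markers summed to 3.14 to 3.56 FPKM in EtOH DMSO, 3.91 to 4.47 in EtOH Nec-1, 6.69 to 8.90 in the libraries labelled 4-OHT DMSO and 8.08 in the library labelled 4-OHT Nec-1. That increase was in Cd68, a lysosomal protein gene, and without it the sums were 1.56 to 2.36, 2.12 to 3.09, 1.01 to 1.18 and 1.94 FPKM. The 7 fibroblast markers summed to at most 0.733 FPKM and the 4 endothelial markers to at most 0.144 FPKM in any library, with Lum and Emcn at 0 throughout. The part of these markers in the results was not tested.

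The first comparison asks how the GTPases differed between organoids labelled 4-OHT DMSO and EtOH DMSO. All 10 members had both 4-OHT DMSO libraries above both EtOH DMSO libraries in FPKM, an order found in 28.4% of the genes above 0 in any of these 4 libraries. The members were chosen with earlier results of these data known, so setting them against this share is not an independent comparison. Differences were fitted with limma on log2(FPKM + 1), where the added 1 understates the change of low genes. A gene was tested if it reached 1 FPKM in at least 2 libraries, and called at a Benjamini-Hochberg adjusted p under 0.05 over all 12702 genes tested. Of the 10 members, 6 were tested and 6 were called higher, against 24.5% of all genes tested. The median of all genes tested was a log2 difference of 0.08.

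These 6 calls are not of equal weight. Irgm1 reached 1 FPKM in all 7 libraries and Igtp in 5 of them. Irgm2 passed only through libraries labelled 4-OHT, so its entry into the fit depended on a higher level under that label. The remaining 3, Mx2, Gbp3 and Gbp7, passed only through the 4-OHT DMSO libraries and so had to differ to be tested.

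Among the regulators, Irgm1, needed for resistance to mycobacteria and linked to autophagy, was the most abundant member in every group. It had 3.05 and 2.75 FPKM under EtOH DMSO and 2.48 and 3.25 under EtOH Nec-1, while the libraries labelled 4-OHT DMSO held 44.0 and 53.7 and the one labelled 4-OHT Nec-1 held 11.5. Both EtOH groups overlapped, both 4-OHT DMSO libraries stood far above them, and the 4-OHT Nec-1 library lay between. The mean FPKM of the 4-OHT DMSO libraries was 16.8 times that of EtOH DMSO, a log2 difference of 3.67 (SE 0.15; limma, adjusted p = 0.000275).

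Igtp, a GTPase of the endoplasmic reticulum that is required for resistance to Toxoplasma gondii, reached 11.8 and 14.2 FPKM under the label 4-OHT DMSO and 2.71 under 4-OHT Nec-1. It had 1.41 and 1.48 FPKM with EtOH DMSO, and 0.901 and 0.729 with EtOH Nec-1. No groups overlapped, and EtOH Nec-1 was the lowest. From EtOH DMSO to 4-OHT DMSO the mean FPKM rose 9.02-fold, a log2 difference of 2.52 (SE 0.13; limma, adjusted p = 0.000377).

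Irgm2, the third regulator, reached 8.63 and 11.6 FPKM under the label 4-OHT DMSO and 2.70 under 4-OHT Nec-1. Its EtOH levels were 0.961 and 0.989 FPKM with DMSO, and 0.765 and 0.883 with Nec-1. Its levels lay below those of Igtp in the 4-OHT DMSO libraries and overlapped them in EtOH Nec-1. The 4-OHT DMSO mean FPKM was 10.4 times that of EtOH DMSO, a log2 difference of 2.48 (SE 0.15; limma, adjusted p = 0.000506). Igtp and Irgm2 are close in sequence and lie side by side, and reads they share could have been split between them.

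Mx2, annotated by RefSeq as a transcribed pseudogene in the reference strain, was low in both EtOH groups. There it had 0.119 and 0.132 FPKM with DMSO and 0.168 and 0.289 with Nec-1, against 4.74 and 7.20 FPKM under the label 4-OHT DMSO and 0.773 under 4-OHT Nec-1. The 4-OHT DMSO mean FPKM was 47.4 times that of EtOH DMSO, the largest such ratio of the members for which one can be given, over a base near the floor. The log2 difference was 2.61 (SE 0.20; limma, adjusted p = 0.000813).

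Of the guanylate-binding proteins, Gbp3, one of the chromosome 3 cluster that takes part in control of Toxoplasma, had the highest level in 4-OHT DMSO. That level was 2.72 and 4.83 FPKM, while the library labelled 4-OHT Nec-1 had 0.116. The EtOH libraries had 0 and 0.0446 FPKM with DMSO, and 0.0355 and 0.109 with Nec-1. It was listed at 0 in an EtOH DMSO library, so no ratio is given, and the log2 difference was 2.19 (SE 0.23; limma, adjusted p = 0.00199). The 4-OHT Nec-1 level was close to the higher EtOH Nec-1 library.

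Gbp7, which takes part in assembly of the phagocyte oxidase on vacuoles, reached 1.46 and 2.74 FPKM under the label 4-OHT DMSO and 0.241 under 4-OHT Nec-1. Its EtOH levels were 0.0834 and 0.184 FPKM with DMSO, and 0 and 0.0613 with Nec-1. The log2 difference between 4-OHT DMSO and EtOH DMSO was 1.42 (SE 0.23; limma, adjusted p = 0.00645), and the ratio of mean FPKM was 15.7. With a pseudocount of 1 this log2 difference was the smallest of the 6 tested, but with 0.1 it was 3.20, above the 3.08 of Igtp. Gbp3 and Gbp7 are neighbours of similar sequence on chromosome 3, where Gbp2 also lies, so the split of reads between them is uncertain. A non-coding gene, Gm40158, also lies within Gbp3.

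The other 4 members stayed below 1 FPKM in every library and were not tested in the main fit. Gbp6, on chromosome 5 with Gbp9, reached 0.493 and 0.907 FPKM under the label 4-OHT DMSO and 0.111 under 4-OHT Nec-1. It had 0.0169 and 0.0408 FPKM with EtOH DMSO, and 0.0259 and 0.0287 with EtOH Nec-1. Gbp9 had the lowest FPKM of the members in 4-OHT DMSO, 0.126 and 0.210, and 0.0621 with 4-OHT Nec-1. Its EtOH levels were 0 and 0.0187 FPKM with DMSO, and 0.0114 and 0 with Nec-1. Both kept the order of the tested members at levels where few fragments decide the value.

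Gbp2, a guanylate-binding protein known to load onto vacuoles of bacteria and parasites, differed from that order. It had 0.0369 and 0 FPKM with EtOH DMSO, but 0.0937 and 0.355 with EtOH Nec-1. The libraries labelled 4-OHT DMSO had 0.206 and 0.592 FPKM, and the one labelled 4-OHT Nec-1 had 0.400. The EtOH Nec-1 and 4-OHT DMSO libraries overlapped, and the 4-OHT Nec-1 library lay between both 4-OHT DMSO libraries. Iigp1, the effector, likewise had 0.201 and 0.536 FPKM under the label 4-OHT DMSO and 0.216 under 4-OHT Nec-1. Its EtOH levels were 0.0965 and 0.0312 FPKM with DMSO, and 0.123 and 0.220 with Nec-1. The regulators thus stood at 8.63 to 53.7 FPKM in the libraries labelled 4-OHT DMSO, while this effector stayed below 1.

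In a fit without the filter on low values, 8 of 10 members were called higher, against 9.68% of the 28195 genes in that fit. Gbp6 had a log2 difference of 0.71 (SE 0.13; limma, adjusted p = 0.0349) and Gbp9 of 0.21 (SE 0.04; limma, adjusted p = 0.0414). Gbp2, at 0.44 (SE 0.18; limma, adjusted p = 0.204), and Iigp1, at 0.35 (SE 0.14; limma, adjusted p = 0.188), were not called. When a gene had to reach 1 FPKM in every library, Irgm1 was the 1 member left in the fit, and it was called.

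**Figure D2:**
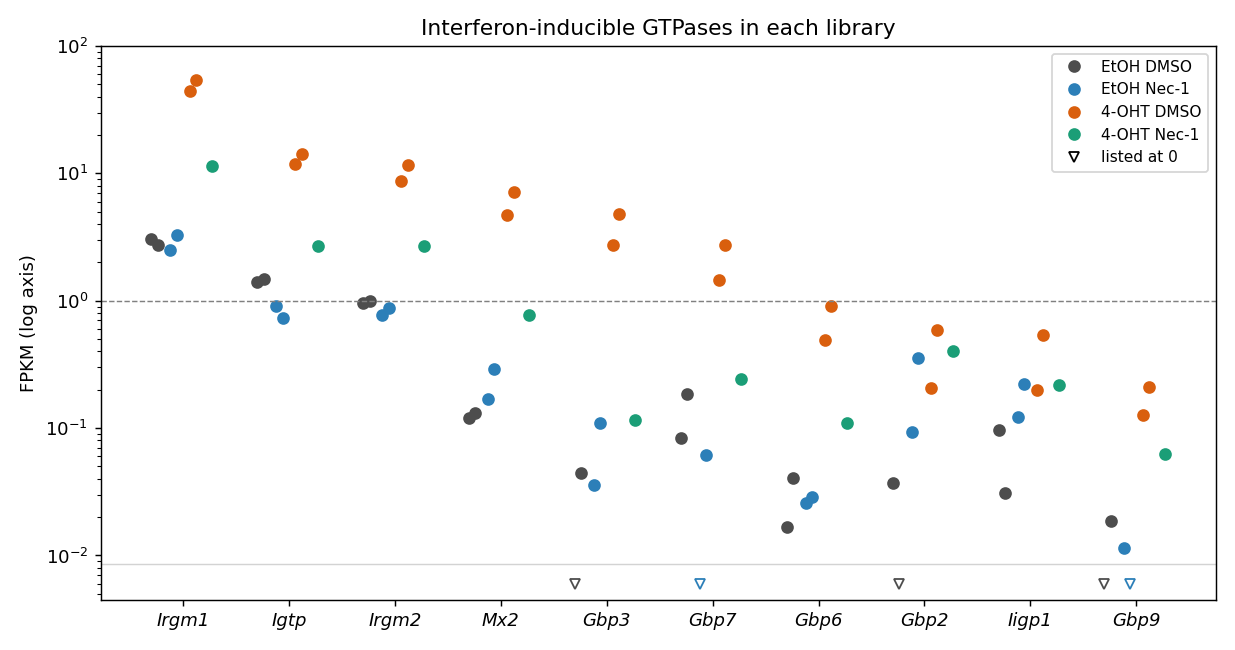
FPKM of the 10 members in each of the 7 libraries, on a log axis, 1 point per library, coloured by group and ordered by the mean in 4-OHT DMSO. Open triangles mark values listed at 0 and the dashed line marks 1 FPKM. Both 4-OHT DMSO libraries lie above both EtOH DMSO libraries for all 10 members.

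In order of FPKM in the libraries labelled 4-OHT DMSO, the members ranked Irgm1, Igtp, Irgm2, Mx2, Gbp3, Gbp7, Gbp6, Gbp2, Iigp1 and Gbp9. The ranges of neighbours were apart from Irgm1 to Igtp, Igtp to Irgm2, Irgm2 to Mx2 and Gbp7 to Gbp6, and overlapped for Mx2 and Gbp3, Gbp3 and Gbp7, and each pair from Gbp6 on. In EtOH DMSO the same 3 regulators led, with ranges apart, and the rest stood at 0.184 FPKM or less. The second 4-OHT DMSO library exceeded the first in FPKM for 10 of 10 members, against 44.9% of all genes above 0 in either. The ratio of the second to the first ran from 1.21 in Igtp to 2.88 in Gbp2. With either 4-OHT DMSO library left out, 6 members were called in a fit where the lone library is assumed to vary like the other groups.

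The split of all calls depended on the scaling between libraries: 3117 genes were called higher and 2120 (16.7%) lower as deposited, against 2213 and 3187 after median centring and 2232 and 2976 after upper quartile scaling. The median of all genes tested moved to -0.08 with centring. The 6 tested members were called higher under both scalings, with log2 differences after centring of 3.51 for Irgm1 and 1.26 for Gbp7, the largest and smallest at a pseudocount of 1.

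**Figure D3:**
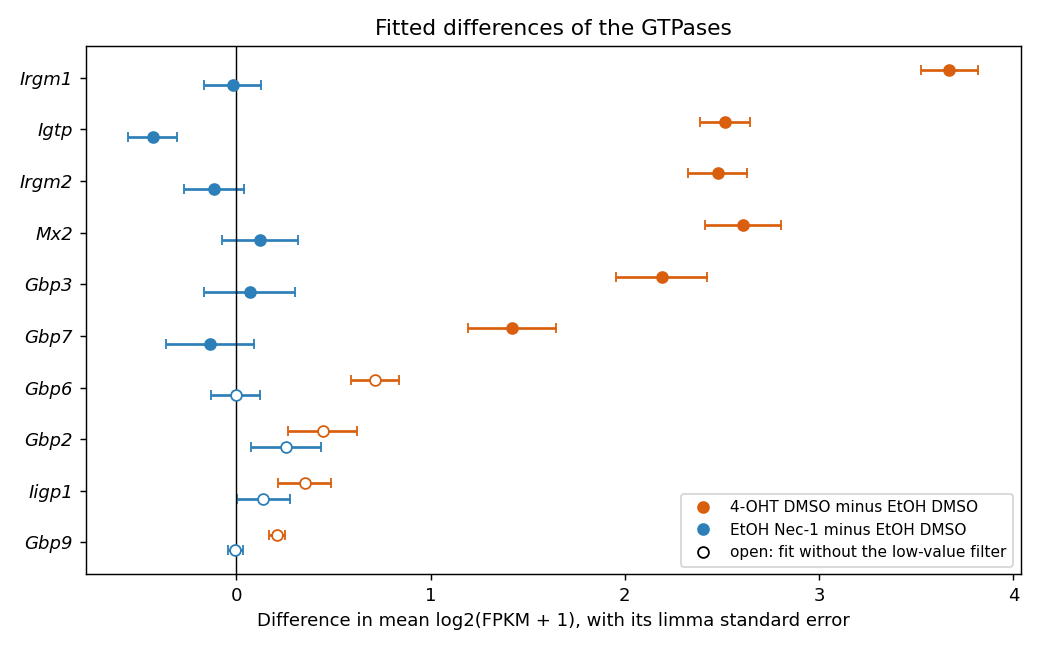
Difference in mean log2(FPKM + 1) of each member, with its limma standard error, for 4-OHT DMSO minus EtOH DMSO (orange) and EtOH Nec-1 minus EtOH DMSO (blue), 2 libraries per group. Filled points come from the fit of 12702 genes and open points from the fit without the low-value filter. The orange differences of the 6 filled members run from 1.42 to 3.67, and the blue ones from -0.43 to 0.12.

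The second comparison asks whether Nec-1 alone moved the GTPases in organoids given EtOH. No member was called (0 of 6 tested; limma, adjusted p from 0.300 to 0.977). Over all genes tested, 0.173% were called higher and 0.0472% lower, so few calls would arise among 6 genes in any case. Of the members tested, 1 had an unadjusted p under 0.05 in the limma fit. That was Igtp, whose mean FPKM in EtOH Nec-1 was 0.565 times that in EtOH DMSO, a log2 difference of -0.43 (SE 0.13; limma, adjusted p = 0.300). The median of all genes tested in this comparison was -0.09. Irgm1 had a log2 difference of -0.02 (SE 0.15; limma, adjusted p = 0.977) and Irgm2 of -0.12 (SE 0.15; limma, adjusted p = 0.781). Both EtOH Nec-1 libraries lay above both EtOH DMSO libraries in FPKM for 3 of 10 members, Gbp2, Iigp1 and Mx2, and below them for 3, Gbp7, Irgm2 and Igtp. All of these but Igtp and Irgm2 were below 0.4 FPKM in the EtOH libraries. The share of all genes with either order was not computed, so these counts are not read as an effect of Nec-1.

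The third comparison sets the single 4-OHT Nec-1 library against the libraries labelled 4-OHT DMSO. With 1 library there is no replicate check and no test in the main analysis. These differences share the 4-OHT DMSO libraries with the first comparison, and are not independent of it. A member was counted when its log2(FPKM + 1) lay at least 1 unit below each 4-OHT DMSO library. The rule counted 5 of 10 members: Irgm1, Igtp, Irgm2, Mx2 and Gbp3. Among all genes whose mean over these 3 libraries reached 1 FPKM, 12036 in number, 1.21% met the same rule, and 6 members reached that mean. Another 4 members had a log2(FPKM + 1) under 1 in a 4-OHT DMSO library and could not meet it.

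In FPKM, the library labelled 4-OHT Nec-1 lay below both 4-OHT DMSO libraries for 8 of 10 members, an order found in 36.2% of all genes above 0 in any of the 3. The exceptions were Gbp2 and Iigp1, which lay between them. Gbp3 had the largest fall, to 3.06% of the mean 4-OHT DMSO FPKM, with log2 differences of -1.74 and -2.39 from the first and second library. Gbp7 stood at 11.5% of that mean, Mx2 at 13.0% and Gbp6 at 15.8%. Igtp stood at 20.8%, Irgm1 at 23.5%, Irgm2 at 26.7% and Gbp9 at 36.9% of the mean 4-OHT DMSO FPKM. Gbp7 lay at log2 differences of -0.98 and -1.59, just outside the rule against the first library. Irgm1 lay at -1.85 and -2.13, Igtp at -1.79 and -2.04, Mx2 at -1.69 and -2.21, and Irgm2 at -1.38 and -1.77 log2 units.

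The last comparison sets the same library against EtOH Nec-1, and so asks what difference between the 4-OHT and EtOH labels was left with Nec-1. Irgm1 alone was at least 1 log2 unit above each EtOH Nec-1 library (1 of 10 members). Of the 11746 genes whose mean over these 3 libraries reached 1 FPKM, 4.24% were, and 3 members, Irgm1, Igtp and Irgm2, reached that mean. Its log2 differences were 1.84 and 1.55, and its FPKM of 11.5 was 4.00 times the EtOH Nec-1 mean. Igtp, at 0.97 and 1.10, and Irgm2, at 1.07 and 0.97 log2 units, missed the rule against 1 library each. The count was 2 without either EtOH Nec-1 library. With a pseudocount of 0.1 in place of 1 it was 5, with 0.25 it was 3, and a limma contrast that assumes that the lone library varies like the other groups called 3 members, Irgm1, Irgm2 and Igtp.

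Mx2, at 0.60 and 0.46 log2 units above the EtOH Nec-1 libraries, had an FPKM 3.39 times their mean. Gbp3 lay 0.11 and 0.01 log2 units above them. In FPKM the 4-OHT Nec-1 library lay above both EtOH Nec-1 libraries for 9 of 10 members, all but Iigp1, against 45.4% of all genes above 0 in any of the 3. It lay above both EtOH DMSO libraries for 10 of 10 members, against 39.3% of genes. A smaller share of responding cells and less RNA per cell cannot be told apart in bulk libraries such as these.

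**Figure D4:**
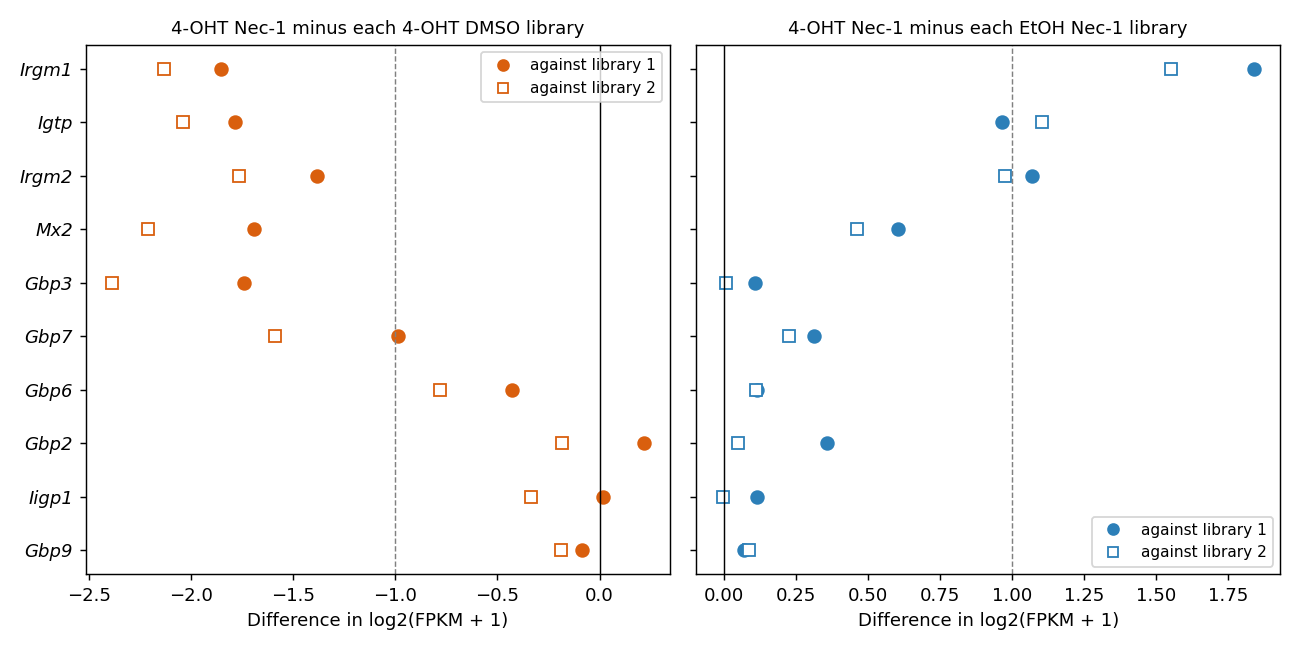
Difference in log2(FPKM + 1) of the 4-OHT Nec-1 library from each 4-OHT DMSO library (left) and from each EtOH Nec-1 library (right), 1 point per comparison library, for each member. Dashed lines mark 1 log2 unit. On the left Irgm1, Igtp, Irgm2, Mx2 and Gbp3 lie past the line against both libraries, and on the right Irgm1 does.

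The rest of the GTPase family was compared with the members by counts alone. Of 20 other interferon-inducible GTPases, 4 were tested and 4 were called higher in 4-OHT DMSO than in EtOH DMSO, while 16 stayed below 1 FPKM in every library. Among all genes tested 24.5% were called higher. Gm12250, Mx1 and Gm5431 reached 1 FPKM only under 4-OHT DMSO and so had to differ to be tested, which leaves Ifi47, above 1 FPKM in all 7 libraries. Gm12250, known as Irgb10, an effector that acts on bacteria, had the largest log2 difference, 3.29 (SE 0.16; limma, adjusted p = 0.000376). It had 7.74 and 10.4 FPKM under the label 4-OHT DMSO and 0.328 under 4-OHT Nec-1, and at most 0.0450 in the EtOH libraries. Ifi47, an effector called Irgd, had a log2 difference of 2.95, Mx1 of 2.27, and Gm5431 the smallest, of 1.51. Gm12250 and Ifi47 thus reached 4-OHT DMSO levels between those of Gbp3 and Irgm1 in FPKM, unlike the effector Iigp1. The effector pair Tgtp1 and Tgtp2, near-identical copies that share reads, had at most 0.243 and 0.579 FPKM. Gbp2b, Gbp11 and Gm4841 were listed at 0 throughout, and Gbp5 had at most 0.0405 FPKM. The very large GTPase genes Gvin1 and Gm4070 were untested and below 1 FPKM throughout. Gvin1 had at most 0.0106 FPKM under 4-OHT DMSO and 0.868 under 4-OHT Nec-1, and Gm4070 had 0.540 and 0 under 4-OHT DMSO and 0.955 under 4-OHT Nec-1.

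Dynamin superfamily relatives, which shape membranes but are not interferon-inducible, gave 1 gene called higher and 1 called lower of 8 tested. The shares among all genes tested were 24.5% and 16.7%, and the median log2 difference of the relatives was -0.02. The called genes were Atl3, at 0.43 (limma, adjusted p = 0.0387), and Dnm1, at -0.60 (limma, adjusted p = 0.0418). After median centring or upper quartile scaling Atl3 was not called, and Dnm1 and Opa1 were called lower. Over all genes tested, the number called lower was then 3187 or 2976, against 2120 as deposited.

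Upstream of the GTPases, the ligands were at or near 0. Of 9 interferon genes, 5 were listed at 0 in every library, among them Ifnb1, Ifnl2 and Ifnl3, and the highest value was 0.174 FPKM for Ifne in the second library labelled 4-OHT DMSO. Interferon transcripts are scarce in most tissues, and a value of 0 FPKM without known depth does not show absence. Of 17 receptors, kinases and transcription factors, 16 were tested. Of these, 8 were called higher and 2 lower in 4-OHT DMSO than in EtOH DMSO, against 24.5% and 16.7% of all genes tested. The transcription factors that carry the type I and III signal were among those that rose, led by Irf7 with a log2 difference of 3.93 (SE 0.18; limma, adjusted p = 0.000321). Stat2 rose by 2.28, Irf9 by 1.70 and Irf1, a driver of Gbp genes, by 1.65 log2 units. The receptor chains Ifngr1, at 0.97, Ifnar2, at 0.79, and Ifnlr1, at 0.55, were also called higher. Ifnlr1 was not called after either rescaling, which left 7 higher and 3 lower. Over all genes tested, median centring left 2213 higher and 3187 lower, and upper quartile scaling 2232 and 2976. Ifngr2, the other interferon-γ receptor chain, fell by 0.56 (limma, adjusted p = 0.00455) and the kinase gene Jak2 by 0.40 (limma, adjusted p = 0.0219).

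With Nec-1, these upstream genes did not share a pattern. Irf7 had 8.74 FPKM in the 4-OHT Nec-1 library, against 36.0 and 50.2 in 4-OHT DMSO, a log2 difference of -2.16. Irf9, a DNA-binding factor of the type I and III response, had 8.56 FPKM with Nec-1 and 7.72 and 8.15 without it, against 1.12 and 1.52 in EtOH Nec-1. Irf9 thus stood at the 4-OHT DMSO level in the library where the members were lower. Among 5 inhibitors of interferon signalling 4 were tested, with 1 called higher and 1 lower, against 24.5% and 16.7% of all genes tested. Usp18 was higher in 4-OHT DMSO than in EtOH DMSO by 4.18 log2 units (limma, adjusted p = 0.000321). It reached 1 FPKM only in libraries labelled 4-OHT, so its entry into the fit depended on a higher level there. Ptpn2, a phosphatase, was lower, with a log2 difference of -0.50 (limma, adjusted p = 0.0128).

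Other interferon-stimulated genes moved with the GTPases. Of 24 such genes, 23 were tested and 23 were called higher in 4-OHT DMSO than in EtOH DMSO, against 24.5% of all genes tested. Oas2 and Zbp1 reached 1 FPKM only in the 4-OHT DMSO libraries and so had to differ to be tested. Ifit3, Ifi44, Oas3, Oasl2, Rsad2, Xaf1, Cmpk2 and Rtp4 reached it only in libraries labelled 4-OHT. Their entry into the fit thus also depended on a higher level under that label. After median centring 21 were called higher, and the median log2 difference as deposited was 3.66. Isg15, a ubiquitin-like modifier, had the largest, 7.75 (SE 0.28; limma, adjusted p = 0.000256), and Ifi35 the smallest, 0.62 (SE 0.14; limma, adjusted p = 0.0198). Isg15 stood at 331 and 469 FPKM under 4-OHT DMSO and 27.3 under 4-OHT Nec-1, against 1.15 and 0.578 in EtOH DMSO. Under the label 4-OHT Nec-1, 20 of 24 lay at least 1 log2 unit below each 4-OHT DMSO library, against 1.21% of 12036 genes. Of the 24, 13 lay at least 1 log2 unit above each EtOH Nec-1 library, against 4.24% of 11746 genes. Both shares leave out genes averaging under 1 FPKM over the libraries compared, a floor not applied to the 24. The second 4-OHT DMSO library exceeded the first for 23 of the 24, as for the members, against 44.9% of genes above 0 in either.

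**Figure D5:**
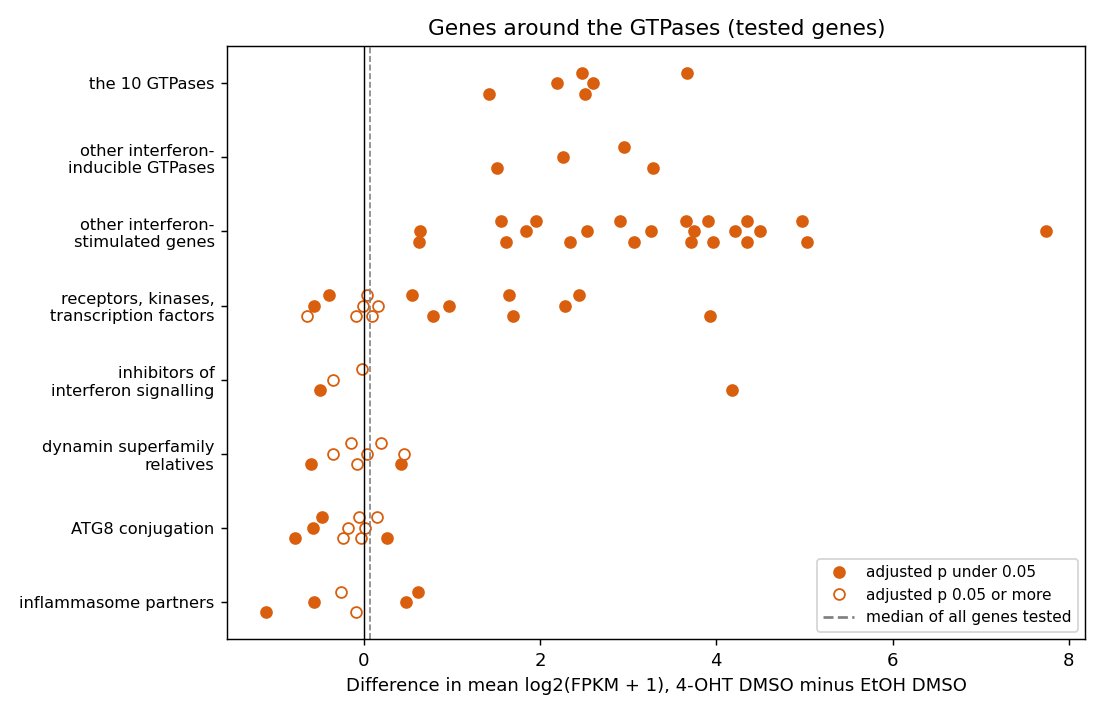
Difference in mean log2(FPKM + 1), 4-OHT DMSO minus EtOH DMSO, 1 point per tested gene, for the 10 GTPases (6 tested) and 7 lists of related genes. Filled points have a limma adjusted p under 0.05, and the dashed line is the median of all genes tested, 0.08. The 6 tested members lie within the range of the other interferon-stimulated genes, 0.62 to 7.75, while dynamin relatives lie around 0.

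Partners of the GTPases had calls in both directions, to be read beside the 24.5% higher and 16.7% lower among all genes tested. The ATG8 conjugation machinery places immunity-related and guanylate-binding GTPases on vacuoles, and of its 10 genes 1 was called higher and 3 lower. The largest change was in Atg12, with a log2 difference of -0.78 (SE 0.09; limma, adjusted p = 0.00274), followed by Gabarap at -0.57 and Atg5 at -0.47, while Gabarapl1 was higher by 0.27. Under both rescalings Gabarapl1 was not called, and 4 of the 10 were lower. Of 8 inflammasome partners, 6 were tested, and 2 were called higher and 2 lower. Aim2, a DNA sensor that acts with guanylate-binding proteins, was higher by 0.62 (limma, adjusted p = 0.00400) and Casp4 (caspase-11), which these proteins help to activate, by 0.48 (limma, adjusted p = 0.0205). Casp1 was lower, with a log2 difference of -0.57 (limma, adjusted p = 0.00628), and Il18 with -1.11 (limma, adjusted p = 0.00296). Both rescalings left Aim2 as the 1 partner called higher, not Casp4, and called 4 lower. The shares above are as deposited. Over all genes tested, 3187 were called lower after median centring and 2976 after upper quartile scaling, against 2120 as deposited.

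The 10 members followed each other across the 7 libraries to different degrees. Pearson's r of a member's log2(FPKM + 1) with the mean of the other 9, each centred and scaled, was 0.986 for Mx2 and between 0.948 and 0.983 for Igtp, Gbp3, Irgm1, Gbp7, Irgm2, Gbp6 and Gbp9. It was 0.843 for Iigp1 and 0.682 for Gbp2. The 7 points fall into the groups of the design, so these values describe the contrast between the 4-OHT DMSO libraries and the rest and carry no test. Outside the members, the 10 genes with the highest r to the mean profile of the members were Apol9b, Micu2, Phf11b, Ifit3, Uba7, H2-K2, Dnajc21, Ifit3b, Trim34a and Rsad2, with r from 0.987 to 0.992 over 7 libraries. Apol9b had 10.1 and 23.3 FPKM in 4-OHT DMSO, 1.21 in 4-OHT Nec-1 and at most 0.130 in the EtOH libraries. Micu2, a mitochondrial calcium uptake gene, had the same profile with a small amplitude, at 42.6 and 47.5 FPKM in 4-OHT DMSO, 38.6 in 4-OHT Nec-1 and 35.4 to 37.2 in the EtOH libraries.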

How the data were processed

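Organoid RNA was sequenced in 7 libraries. The authors deposited FPKM per Ensembl mouse gene, and the submitters' processing notes name HISAT2 2.1.0, StringTie 1.3.3b and mm10. The 2 CUT&Tag samples were not analysed here. Another 2 columns, which repeat other tables, were not counted as libraries, and 0 columns were left unmapped. FPKM was tested with limma 3.58.1 (R 4.3.3, mean-variance trend, 1 mean per group) on log2(FPKM + 1), for the 12702 genes that reached 1 FPKM in 2 or more libraries. Tables were made with Python 3.11.15, numpy 2.4.6 and pandas 2.3.3, and plots with matplotlib 3.10.9. The fit was tested on simulated data. Symbols and coordinates came from RefSeq, GRCm38.p6. The members and gene lists were chosen with earlier results of these data known. The genes named are the 10 members, Mettl3, the largest and smallest change of each list and the 10 genes closest in profile. Other genes of the lists were named after their values were seen. Alternatives were other scalings, filters, pseudocounts, a replicate block and each library left out. Replicate numbers did not pair the libraries. An item is not reported here.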

Additional observations from a re-analysis of the deposited data

Results flagged for a closer look

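Mx2 had differences of opposite sign with Nec-1 in the EtOH organoids and in those labelled 4-OHT. Both EtOH Nec-1 libraries lay above both EtOH DMSO libraries, with a difference of 0.12 in mean log2(FPKM + 1) that was not called (SE 0.20; limma, adjusted p = 0.823). In the other organoids the 4-OHT Nec-1 library lay below both 4-OHT DMSO libraries, with a difference of -1.95 that rests on 1 library and has no test. The difference between these effects was not tested, and the EtOH values, 0.119 to 0.289 FPKM, are near the floor of the measurement. Opposite signs were not particular to Mx2. Gbp3 had 0.07 in the EtOH organoids and -2.06 in those labelled 4-OHT. Iigp1 had 0.14, in the fit without the filter, and -0.16.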

How the results depend on the processing

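Groups held 1 or 2 libraries, the fragments behind each FPKM are not known, and most members were below 1 FPKM in the EtOH organoids. In 4-OHT DMSO against EtOH DMSO, the 6 tested members kept their direction and call in all 91 combinations of a member and an alternative. The count of members called was 6 with each library left out in turn (lowest 6, highest 6), where a group left with 1 library is assumed to vary like the others, 8 without a filter and 1 with at least 1 FPKM in every library, where only Irgm1 was in the fit. With a pseudocount of 0.1 the log2 difference was 4.96 for Gbp3, 4.72 for Mx2 and 3.20 for Gbp7. In EtOH Nec-1 against EtOH DMSO the count was 0 under every alternative. The sign of Irgm1 turned there with median centring (0.081), upper quartile scaling (0.062), without the first EtOH DMSO library (0.04) and without the first EtOH Nec-1 library (0.13), and it was called in none of them (-0.16 to 0.13 with 1 library left out). Over all genes this comparison called 28, with 8 without a filter, 43 after upper quartile scaling, 79 in its own 4 libraries and 9 to 75 with 1 library left out. For 4-OHT Nec-1, members below each 4-OHT DMSO library numbered 5 to 7 over the alternatives (5 or 6 with a library left out). A limma contrast, which assumes that the lone library varies like the other groups, called 5, and 2 in the fit without a filter. Members above each EtOH Nec-1 library numbered 1, against 5 with a pseudocount of 0.1, 3 with 0.25, 3 by the limma contrast, 2 by it without a filter, and 2 without either library; the cause was not tested. With the replicate number as a block, the members called numbered 6 and 0, and all genes called 4697 in 4-OHT DMSO against EtOH DMSO, against 5237 without it. Deviations of same-numbered libraries correlated at -0.040 to 0.0065, so the libraries share only a number.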
